A study of Mus musculus with 24 samples.

Results

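Interferon-stimulated genes were followed in mouse lung organoids as a list of 39 genes, taken by their symbols from a count table of 49280 features. All 39 symbols were found once each, and all 39 passed the filter on low counts in every fit, so no member is missing from the counts that follow. Interferons are secreted signals of infection and cell damage. Type I and type III interferons bind receptors whose kinases activate STAT2, which works with IRF9 in a complex that binds the interferon-stimulated response element (ISRE) near the genes listed here. Type II interferon acts mainly through another element, the gamma-activated site (GAS). The lung epithelium meets inhaled viruses first and carries a basal level of many of these genes without infection. As a check of the label, ISRE matches near the start sites are given first.

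The organoids paired primary epithelial cells from the lungs of naive wild-type mice with CCL206, a line of mouse lung fibroblasts, in Matrigel, a basement membrane gel. Until day 14 the medium held 5% cigarette smoke extract (CSE) or its vehicle. The organoids were then taken apart, the epithelial cells were plated again with fresh CCL206 cells, and drugs or vehicle followed until day 28. The fresh fibroblasts were thus added after the CSE medium ended, and for them CSE names the earlier exposure of the epithelial cells. In the Epcam+ fraction (Epi) the groups were EpiCSETF (CSE, then 100 nM tanimilast, an inhibitor of the cyclic AMP phosphodiesterase PDE4, with 100 nM formoterol, a beta-agonist bronchodilator), EpiTF (vehicle, then both drugs), EpiCSE (CSE, then vehicle) and EpiVeh (vehicle throughout). FibCSETF, FibTF, FibCSE and FibVeh are the Epcam- cells of the same cultures, labelled fibroblasts, and each of the 8 groups held 3 libraries, 1 from each of 3 mice. The age, sex and strain of the mice are not stated in the labels, and the fibroblasts are a single line, so the spread between Fib libraries is that between cultures.

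Library totals ran between 31832267 and 47534709 counts, and the 39 members took 0.0908 to 0.174% of them. Levels are CPM, the usual per-library rate of a count, here over the TMM-adjusted total, and 1 CPM stood for at least 31.8 counts. The fractions were enriched rather than pure. The summed level of 12 epithelial markers was 8948 to 13839 CPM in Epi libraries and 3254 to 6678 CPM in Fib libraries. The 12 fibroblast markers summed to 537 to 1958 CPM in Epi libraries and 2958 to 8841 CPM in Fib libraries. In such bulk libraries fewer cells of a type and less RNA per cell cannot be told apart. Leukocyte markers differed among themselves. Ptprc reached at most 0.0875 CPM in Epi and 0.248 CPM in Fib libraries, and Siglecf had no count in any library. Siglech, a plasmacytoid dendritic cell marker, had none either. Cd68 ran between 24.8 and 76.4 CPM in Epi and between 23 and 50.1 CPM in Fib libraries. Lyz2 ran between 3.56 and 48.9 CPM in Epi and between 3.09 and 54.2 CPM in Fib libraries.

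Many of the members share a short sequence at their start sites. RefSeq windows of 300 bases (250 before to 50 after a start, GRCm38.p6) were on hand for 29 of the 39 members. The ISRE core was searched as GAAANNGAAA on both strands and the GAS as TTCNNNGAA, which reads the same on both strands. Of the 29 members, 17 (58.6%) held an ISRE match, against 1079 of 27025 genes with a window (3.99%). A GAS match was in 7 of 29 members (24.1%), against 9.55% of all genes, and in 2 members the matches overlapped. The sites below are shown because they carry the letters that 17 of the 29 members with a window share, and cover each role group that had a match. Each is written in the direction of its gene, with the ISRE core in capitals, and TTTCNNTTTC is the core read from the other strand.
Stat2 (chr10:128270256-128270305, + strand): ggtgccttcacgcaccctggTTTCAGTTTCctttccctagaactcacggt
Ifih1 (chr2:62646206-62646233, - strand): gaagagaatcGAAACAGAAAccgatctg
Ifit1 (chr19:34640784-34640833, + strand): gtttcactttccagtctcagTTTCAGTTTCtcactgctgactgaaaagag
Oas3 (chr5:120777705-120777754, - strand): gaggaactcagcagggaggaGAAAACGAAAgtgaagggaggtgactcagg
Eif2ak2 (chr17:78882535-78882564, - strand): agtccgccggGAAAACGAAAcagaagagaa
Isg15 (chr4:156200861-156200910, - strand): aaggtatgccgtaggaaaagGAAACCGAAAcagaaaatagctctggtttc
Trim30a (chr7:104465200-104465249, - strand): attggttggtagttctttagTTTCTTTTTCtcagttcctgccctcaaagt
Gbp2 (chr3:142620584-142620633, + strand): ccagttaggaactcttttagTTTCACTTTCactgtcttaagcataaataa
Igtp (chr11:58199502-58199551, + strand): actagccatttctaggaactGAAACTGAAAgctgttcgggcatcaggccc
Ifitm3 (chr7:141010706-141010735, - strand): aaacttctgaGAAACCGAAActgccgcaga
Bst2 (chr8:71537567-71537616, - strand): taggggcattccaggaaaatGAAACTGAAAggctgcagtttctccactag
The centres of these matches lay from 217 bases before the start, in Stat2, to 37 bases after it, in Ifih1. Isg15 held 3 overlapping matches, at -73, -67 and -61. The windows of Oasl2, Xaf1, Ifi44, Irf7 and Trim25, which are named in the CSE comparison below, held none. Neither did those of Ifit2, Irf9, Oasl1, Ifi35, Dtx3l, Cmpk2 and Sp100. Rtp4 and Zbp1 had no window. A search for exact letters in 300 bases cannot show that a gene lacks the element, and a link between matches and CSE was not tested. The 150 bases before the start of Oasl2 and Xaf1 are given for comparison, with no letters in capitals because the core was not found in them.
Oasl2 (chr5:114896784-114896933, + strand): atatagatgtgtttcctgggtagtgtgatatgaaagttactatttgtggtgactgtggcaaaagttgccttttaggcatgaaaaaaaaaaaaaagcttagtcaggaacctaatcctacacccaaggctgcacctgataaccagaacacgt
Xaf1 (chr11:72301479-72301628, + strand): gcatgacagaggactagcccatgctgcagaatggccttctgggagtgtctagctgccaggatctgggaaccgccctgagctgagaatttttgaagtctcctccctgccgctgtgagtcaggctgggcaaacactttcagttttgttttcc

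Per length of exon, Ifitm3 stood far above the rest. IFITM3, a membrane protein that blocks fusion of enveloped viruses in endosomes, averaged 684 ± 90.7 CPM per kb in Epi and 358 ± 75 CPM per kb in Fib libraries (SD, n = 12 each). Next came Bst2, which encodes tetherin, a protein that holds budding virus at the cell surface, with 51.1 ± 7.19 and 65.1 ± 7.9 CPM per kb in Epi and Fib. Isg15, the ubiquitin-like modifier that gives the family its best-known mark, had 20.3 ± 4.29 and 14 ± 3.65 CPM per kb. The spreads of Ifitm3, Bst2 and Isg15 in Epi libraries did not touch, so this order is larger than the spread between libraries. Below them Trim25, at 18.8 ± 3.19, and Mx1, at 17.1 ± 4.38 CPM per kb in Epi, lay within the SD of Isg15. The lowest member was Mx2, with 0.679 ± 0.192 and 0.576 ± 0.166 CPM per kb in Epi and Fib.

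**Figure D1:**
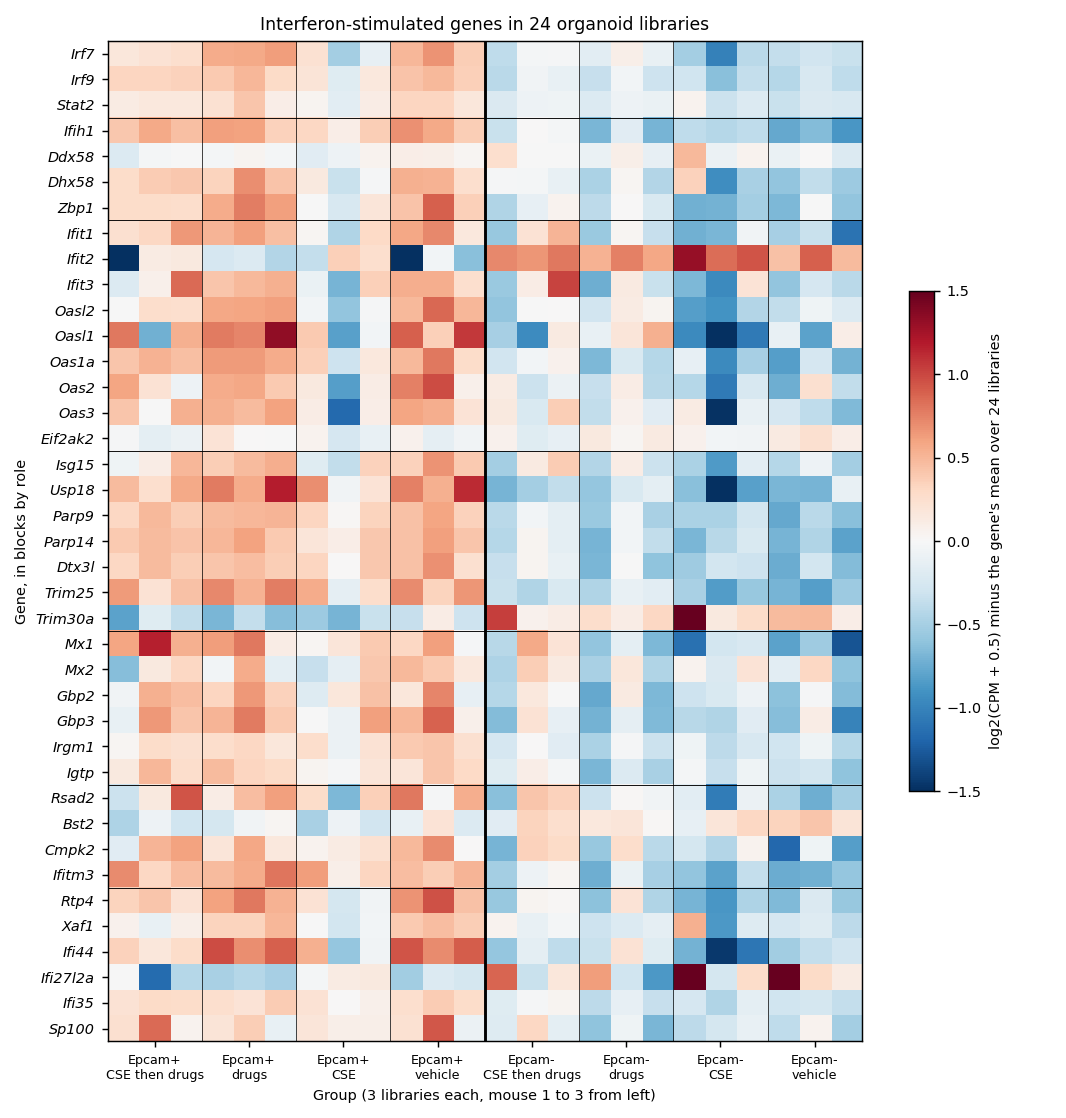
Rows are the 39 genes in blocks by role and columns the 24 libraries by group, with mouse 1 to 3 from left. Colour is log2(CPM + 0.5) minus the gene's mean over the 24 libraries, cut at 1.5. Most rows are red in the Epcam+ fraction, on the left, and Ifit2, Trim30a, Bst2 and Ifi27l2a run the other way. The second EpiCSE library is the lowest Epcam+ column in 28 of 39 rows.

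Most members were higher in Epcam+ than in Epcam- cells. Over 12 Epi and 12 Fib libraries, averaged over the 4 treatments, 32 of 39 members were called higher in Epi and 5 lower at an adjusted p under 0.05 (edgeR quasi-likelihood test, Benjamini-Hochberg). The background was 34.7% of all 19142 genes higher and 34.2% lower, 68.9% in either direction. The median log2 fold change was 0.59 for the members and 0.03 for all genes tested. In 25 members the Epi library was higher in each of the 12 pairs of Epi and Fib libraries of the same culture. The share of all genes with such pairs was not counted, so this number has no background. The libraries did not overlap for 5 members higher in Epi, against 7.22% of all genes, and for 1 lower, against 11.3%. The 5 were Ifih1, Usp18, Parp9, Parp14 and Ifitm3, and the 1 was Ifit2. Epithelial markers differed in the same comparison by a median log2 fold change of 1.22 (12 of 12 higher in Epi) and fibroblast markers by -2.66 (11 of 11 tested lower). Their part in the differences of the members was not tested.

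Among the regulators, all 3 were higher in Epi. Irf7, the transcription factor that amplifies interferon production, averaged 29 ± 0.79 CPM in EpiCSETF, 37.6 ± 1.04 in EpiTF, 23.1 ± 6.01 in EpiCSE and 35.9 ± 3.88 in EpiVeh (SD, n = 3 each). In Fib it averaged 22.7 ± 3.22 CPM in FibCSETF, 23.9 ± 2.34 in FibTF, 16.1 ± 3.51 in FibCSE and 19.7 ± 0.562 in FibVeh. Each Epi mean was above the Fib mean of the same treatment, and the groups with CSE and no drugs were the lowest of their fraction. The difference between the fractions was 0.58 ± 0.08 (log2, SE) for Irf7. It was 0.59 ± 0.06 for Irf9 and 0.32 ± 0.05 for Stat2, which pair in the ISRE-binding complex.

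The sensors split. Ifih1 encodes MDA5, a sensor of long double-stranded RNA, and ran between 26.9 and 40.6 CPM in Epi libraries (median 33.9), against 13.5 and 25.3 CPM in Fib libraries (median 18.9). Its ranges did not overlap, and the difference was 0.90 ± 0.06, with the smallest adjusted p of the list (6.18e-10, edgeR). Zbp1, a sensor of left-handed nucleic acids, was higher by 0.73 ± 0.09, and Dhx58, which tunes the RNA sensors, by 0.59 ± 0.12. Ddx58 encodes RIG-I, the sensor of RNA ends. It had 52.5 to 64.9 CPM in Epi libraries and 52.7 to 85.1 CPM in Fib libraries, and did not pass the test (-0.07 ± 0.06, adjusted p = 0.323).

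Of 9 genes that act on translation and RNA decay, 7 were higher in Epi. Ifit1 and Ifit3, which bind viral messenger RNA and keep it from ribosomes, were higher by 0.66 ± 0.13 and 0.47 ± 0.19. The oligoadenylate synthetases Oas1a (0.83 ± 0.10), Oas2 (0.63 ± 0.16) and Oas3 (0.50 ± 0.18), which switch on RNase L, were higher too, as was the synthetase-like gene Oasl2 (0.57 ± 0.09). Oasl1, which in mice holds back translation of Irf7, ran between 2.94 and 14.7 CPM in Epi (median 8.87) and between 1.29 and 8.28 CPM in Fib (median 4.43). Its ranges overlapped, yet Epi was higher in 12 of 12 culture pairs (0.98 ± 0.21, adjusted p = 0.000419, edgeR).

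Ifit2, a partner of Ifit1 and Ifit3, ran against them. It had 0.187 to 13.4 CPM in Epi libraries (median 8.75) and 14.2 to 26.3 CPM in Fib libraries (median 17.5), with no overlap and 0 of 12 pairs higher in Epi. The log2 fold change was -1.17 ± 0.41 (adjusted p = 0.0168, edgeR). The first libraries of EpiCSETF and EpiVeh, both from mouse 1, stood apart at 0.224 and 0.187 CPM (10 and 8 counts), while the other 10 Epi libraries held 6.49 to 13.4 CPM. Without mouse 1 the difference was -0.83 (adjusted p = 2.67e-05). Without mouse 2 it was -1.49 (adjusted p = 0.0579), and without mouse 3 it was -1.32 (adjusted p = 0.108).

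Eif2ak2 encodes PKR, the kinase that stops translation on double-stranded RNA. It ran between 49.6 and 68.2 CPM in Epi (median 57.8) and between 52.2 and 70.1 CPM in Fib (median 61.8), with almost the same ranges. It was lower in Epi by -0.10 ± 0.04 (adjusted p = 0.0435, edgeR), a call that 11 of 34 alternatives did not keep.

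Of 7 genes of ISG15 conjugation and ubiquitin, 6 were higher in Epi. Usp18, the protease that removes ISG15 and damps the type I receptor, had the largest difference of the 39. It ran between 18.3 and 43.6 CPM in Epi (median 28.3) and between 6.02 and 17.5 CPM in Fib (median 12.3), without overlap (1.19 ± 0.13, adjusted p = 9.12e-08, edgeR). Trim25, the ubiquitin ligase that activates RIG-I, ran between 69.7 and 131 CPM in Epi (median 111) and between 42.6 and 70.9 CPM in Fib (median 55.3). Only the ends of the Trim25 ranges met, and the difference was 0.94 ± 0.08 (adjusted p = 2.7e-09). Parp9 and Dtx3l, which form a ubiquitin ligase complex, were higher by 0.77 ± 0.06 and 0.73 ± 0.08. The ADP-ribosyltransferase Parp14 was higher by 0.80 ± 0.07, and Isg15 by 0.52 ± 0.12.

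Trim30a, a mouse gene of the tripartite motif family, was the exception of that group. It had 5.01 to 9.87 CPM in Epi (median 6.95) and 9.5 to 31.9 CPM in Fib (median 11), and 0 of 12 pairs were higher in Epi (-0.98 ± 0.18, adjusted p = 6.12e-05, edgeR). The 2 highest values, 31.9 and 19.2 CPM, were the first libraries of FibCSE and FibCSETF, both from mouse 1, without which the difference was -0.58 (adjusted p = 0.000544, edgeR).

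Of the GTPases, 5 of 6 were higher in Epi. Mx1, a dynamin-like protein that traps viral nucleocapsids, averaged 80.4 ± 20.7 CPM in EpiCSETF, 67.2 ± 15.6 in EpiTF, 53.5 ± 6.86 in EpiCSE and 58 ± 12.6 in EpiVeh (SD, n = 3 each). Its Fib means were 52.3 ± 17.3 CPM in FibCSETF, 33.7 ± 7.04 in FibTF, 32.7 ± 10.1 in FibCSE and 25.6 ± 6.62 in FibVeh. Mx1 was higher in Epi by 0.86 ± 0.14, and its highest mean in either fraction was that of CSE followed by drugs. The guanylate-binding proteins Gbp2 and Gbp3, which gather on the membranes around pathogens, were higher by 0.58 ± 0.13 and 0.81 ± 0.16. The immunity-related GTPases Irgm1 and Igtp, of the same defence, were higher by 0.44 ± 0.06 and 0.53 ± 0.07. Mx2, a relative of Mx1, had 1.23 to 3.44 CPM in Epi and 1.27 to 2.97 CPM in Fib and did not pass (0.22 ± 0.18, adjusted p = 0.295).

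At the membrane, Ifitm3 ran between 352 and 580 CPM in Epi (median 459) and between 189 and 337 CPM in Fib (median 227), without overlap (0.93 ± 0.08, adjusted p = 8.54e-09, edgeR). Rsad2, or viperin, which makes a chain-ending nucleotide, was higher in Epi by 0.62 ± 0.20. Its neighbour Cmpk2, a mitochondrial nucleotide kinase, was higher by 0.61 ± 0.18. Bst2 ran the other way, with 36.7 to 59.5 CPM in Epi (median 46.2) and 45.9 to 69.1 CPM in Fib (median 59.1). Of 12 pairs, 1 was higher in Epi (-0.36 ± 0.07, adjusted p = 0.000185).

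Among the rest, Ifi44, a cytoplasmic protein first found in hepatitis, ran between 35.2 and 105 CPM in Epi (median 81.7) and between 19.1 and 61.7 CPM in Fib (median 40.9). It was higher by 0.97 ± 0.11 (adjusted p = 1.69e-07, edgeR). Rtp4, a chaperone of G protein-coupled receptors, was higher by 0.80 ± 0.10, the nuclear body protein gene Sp100 by 0.51 ± 0.12, Ifi35 by 0.46 ± 0.04 and Xaf1, which promotes cell death, by 0.32 ± 0.11. Ifi27l2a, a small mitochondrial membrane protein gene, was low, with 0.17 to 1.15 CPM in Epi (median 0.676) and 0.321 to 4.16 CPM in Fib (median 1.24). It was lower in Epi by -1.12 ± 0.34 (adjusted p = 0.00684, edgeR). Mouse 1 held the highest Fib values, and without it the difference was -0.41 (adjusted p = 0.204).

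**Figure D2:**
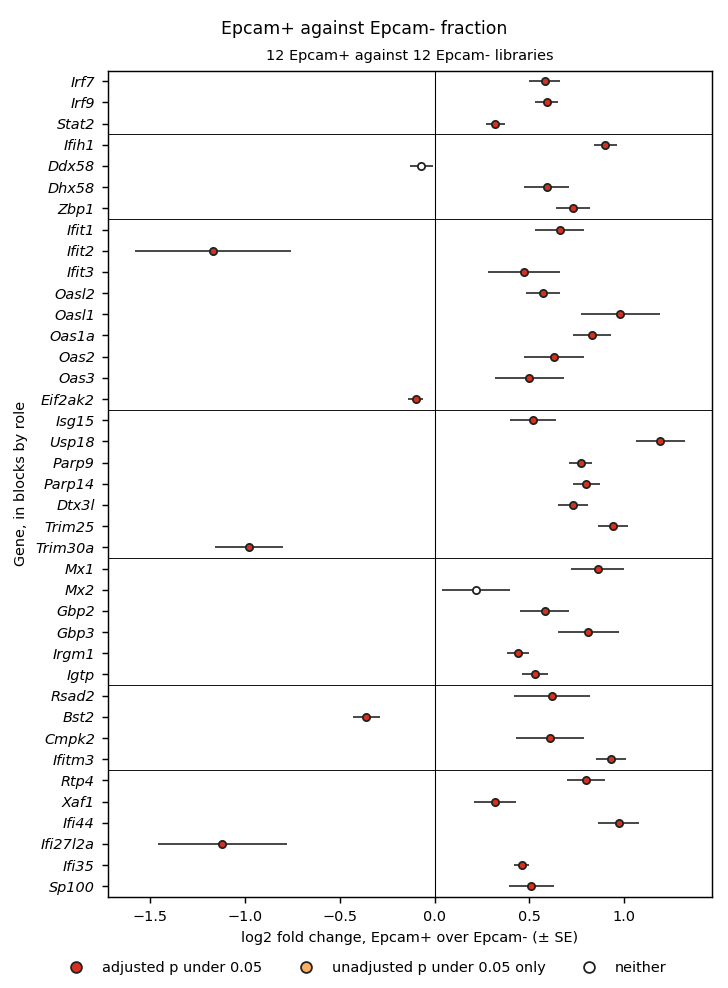
Each point is a gene's log2 fold change, 12 Epcam+ over 12 Epcam- libraries, averaged over treatments, with its SE as a bar. Red points passed an adjusted p under 0.05 and white points did not. The 32 red points right of 0 reach 1.19 (Usp18), and the 5 left of it reach -1.17 (Ifit2).

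The gap between the fractions was smaller in cultures that had CSE. Within a culture, the median difference over the 39 members (log2 CPM, Epi minus Fib) was 0.47, 0.30 and 0.27 in mouse 1 to 3 with CSE then drugs, and 0.88, 0.48 and 0.78 with drugs alone. It was 0.48, 0.39 and 0.42 with CSE alone, and 1.02, 0.79 and 0.84 with vehicle. In each mouse, the culture with CSE lay below its counterpart without it. The gap in the epithelial over fibroblast marker difference was 4.48, 2.48 and 2.68 log2 units with CSE then drugs against 4.12, 2.84 and 4.6 with drugs alone, and 5.12, 2.56 and 3.10 with CSE alone against 4.29, 3.50 and 4.23 with vehicle. It was thus smaller with CSE in mouse 2 and 3 and larger in mouse 1, and its part in the members' gap was not tested. As a test of single genes, the difference of the CSE effect between Epi and Fib called 0 of 39 members by edgeR, against 0% of all genes, and 1 by DESeq2, Ifih1, against 0.383%. At an unadjusted p under 0.05 the CSE effect was lower in Epi for 15 of 39, against 4.08% of all genes, and higher for 0, against 4.55%. With 1 library left out the count of 15 was 10 to 24, and without mouse 3 it was 3. The 3 with the smallest p were Ifih1 (-0.58 ± 0.13, adjusted p = 0.271, edgeR), Igtp (-0.53 ± 0.15, adjusted p = 0.362) and Xaf1 (-0.69 ± 0.22, adjusted p = 0.456). The median over the members was -0.38, against -0.02 for all genes.

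In Epcam+ cells, members were lower after CSE than after vehicle, by amounts that mostly missed the test. Without drugs, 0 of 39 passed by edgeR, where the background was also 0%, and 3 by DESeq2, which called 0.107% of all genes that it gave an adjusted p. The smallest adjusted p was 0.833. At an unadjusted p under 0.05, 20 of 39 were lower, against 1.7% of all 18038 genes, and 0 were higher, against 2%. The EpiCSE libraries lay below the EpiVeh libraries without overlap for 14 members, against 2.99% of all genes, and above them for 1, Ifi27l2a, against 3.04%. The median was -0.33 for the members and 0 for all genes.

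Oasl2 had the smallest p. It measured 35, 23.7 and 35.7 CPM in EpiCSE and 50.6, 66 and 51.2 CPM in EpiVeh, so each EpiCSE library was below each EpiVeh library (-0.83 ± 0.15, DESeq2 adjusted p = 0.0035). Xaf1 measured 12.5, 10.3 and 12.2 CPM in EpiCSE and 16.6, 17.5 and 16.4 CPM in EpiVeh (-0.53 ± 0.10, DESeq2 adjusted p = 0.00505). Rtp4 measured 20.7, 14.7 and 17.2 CPM in EpiCSE and 28.8, 34.9 and 24.3 CPM in EpiVeh (-0.74 ± 0.15, DESeq2 adjusted p = 0.015). Neither Xaf1 nor Rtp4 overlapped. The fold changes and SE of these 3 genes are those of edgeR, by which none passed (adjusted p of at least 0.833). By role, the unadjusted count was 3 of 3 regulators, 3 of 4 sensors, 5 of 9 translation and RNA decay genes and 4 of 7 genes of ISG15 and ubiquitin. It was 1 of 6 GTPases, 0 of 4 membrane genes and 4 of 6 others.

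The second EpiCSE library weighed on this comparison. It was the lowest of the 12 Epi libraries for 28 of 39 members, and its epithelial over fibroblast marker difference was the lowest too, at 3.49 log2 units, against 4.39 to 6.26 in the others. The second EpiVeh library was the highest for 18 members. Within mice, 36, 37 and 26 of 39 members were lower in EpiCSE than in EpiVeh in mouse 1 to 3, with medians of -0.28, -0.65 and -0.06. Without that EpiCSE library the unadjusted count was 10 and the median -0.28. The count was also 13 with the second EpiVeh library or mouse 1 left out. Leaving out mouse 2 gave 10, with a median of -0.20. With the marker difference as a covariate they were 25 and -0.35, and the share of all genes in that fit was not counted. Leukocyte markers, 13 in all, summed to 69.9 to 91.9 CPM in EpiCSE and 59.9 to 66 CPM in EpiVeh. The markers split: Lyz2 averaged 34.3 ± 22.1 CPM in EpiCSE against 11.4 ± 9 in EpiVeh (SD, n = 3 each). Cd68 went the other way, with 42.8 ± 17.4 CPM in EpiCSE against 49.7 ± 5.99 in EpiVeh. The part of these markers was not tested.

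With drugs in both arms, members were again lower with CSE in mouse 1 (34 of 39, median -0.22) and mouse 2 (32 of 39, median -0.25), and evenly split in mouse 3 (20 of 39, median -0.01). In EpiCSETF against EpiTF, which share no library with the pair above, 0 of 39 were called by edgeR or DESeq2, against 0% of all genes. At an unadjusted p under 0.05, 5 were lower, against 2.27% of all genes. With 1 library left out the count of 5 was 3 to 5. The libraries did not overlap for 8 members, against 5.67%. Oasl2 measured 35.8, 43.2 and 43.1 CPM in EpiCSETF and 54.3, 54.5 and 55.4 CPM in EpiTF (-0.43 ± 0.15, adjusted p = 0.934, edgeR). Xaf1 measured 13.1, 11.6 and 13.4 CPM in EpiCSETF and 15.9, 15.9 and 17.9 CPM in EpiTF (-0.38 ± 0.10, adjusted p = 0.799). For both genes each CSE library was below each library without it. Ifi44 measured 67.5, 59.8 and 64 CPM in EpiCSETF and 105, 86.5 and 98.6 CPM in EpiTF, again without overlap (-0.60 ± 0.21, adjusted p = 0.954).

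Averaged over the drug arms, 6 libraries with CSE were set against 6 without, and 0 of 39 members passed by edgeR. The background was 0.00554%, which is 1 gene. With mouse as a block, which the shared animals allow, 5 of 39 were lower, against 0.571% of all genes. They were Xaf1 (-0.46 ± 0.07, adjusted p = 0.0243), Ifi44 (-0.73 ± 0.11, 0.032), Rtp4 (-0.52 ± 0.09, 0.0391), Oasl2 (-0.63 ± 0.11, 0.047) and Trim25 (-0.29 ± 0.06, 0.0487). The fit without the block gave nearly the same log2 fold changes for Xaf1 (-0.46 ± 0.07, adjusted p = 0.092), Oasl2 (-0.63 ± 0.11, 0.0974) and Rtp4 (-0.53 ± 0.10, 0.148). Each of these genes was lower after CSE in 6 of 6 mouse and drug pairs. DESeq2 without the block called 6, namely Xaf1, Oasl2, Rtp4, Irf7, Zbp1 and Ifi44, against 0.838% of all genes. Those 6 are also the members whose libraries did not overlap, 15.4% of the list, against 0.266% of all genes. In all, 19 of 39 were lower at an unadjusted p under 0.05, against 3.84% of all genes, and 10 were without mouse 2. The median was -0.22 for the members and 0 for all genes.

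**Figure D3:**
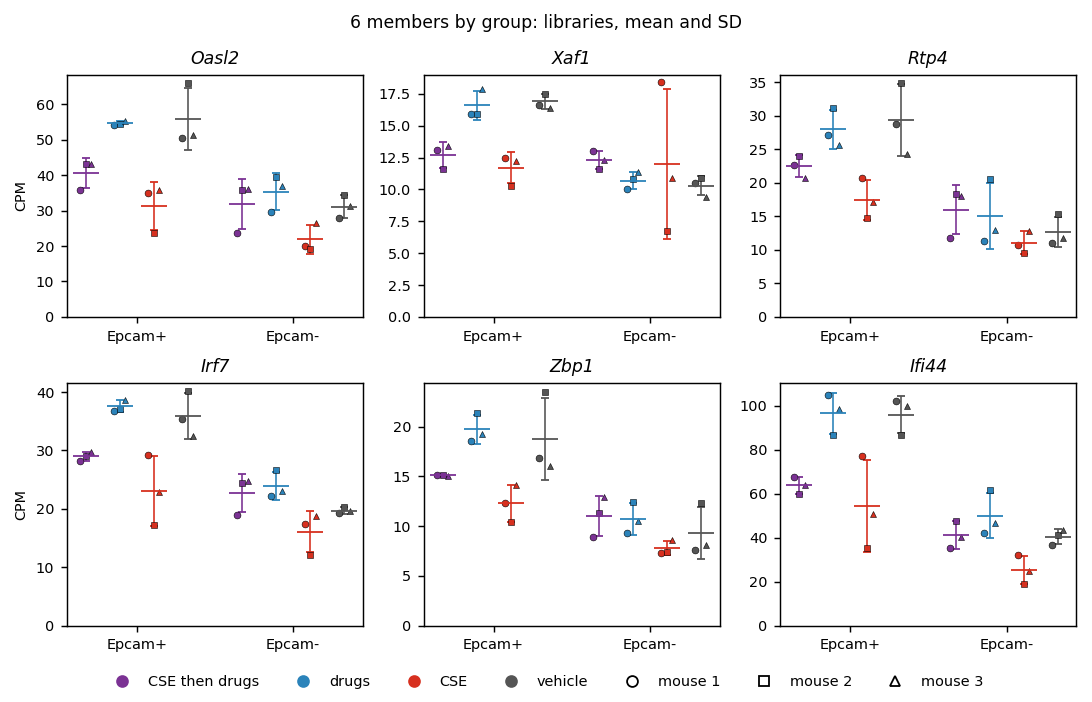
Points are CPM in single libraries (circle, square and triangle for mouse 1, 2 and 3), and lines are the mean and SD of 3 libraries. Within each fraction the groups run CSE then drugs, drugs, CSE, vehicle. For these 6 genes both Epcam+ groups with CSE lie below both Epcam+ groups without it, as in Oasl2 (means of 40.7 CPM in EpiCSETF and 31.4 in EpiCSE, against 54.7 in EpiTF and 55.9 in EpiVeh).

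In Epcam- cells more members lay above than below their level without CSE, by small amounts, and single members lay on each side. The fibroblasts among these cells were added fresh after the CSE medium ended. Averaged over drugs, 0 of 39 passed by edgeR, against 4.01% of all 18287 genes, and 9 had an unadjusted p under 0.05. Of these 5 were higher, against 11.5% of all genes, and 4 lower, against 9.73%. The medians were 0.21 for the members and 0.02 for all genes. Ifih1 came closest. It measured 19.8, 25.3 and 24.7 CPM in FibCSETF against 15.5, 22.2 and 15.3 CPM in FibTF, and 19.2, 18.6 and 19.2 CPM in FibCSE against 14.5, 15.8 and 13.5 CPM in FibVeh. It was higher after CSE in 6 of 6 pairs (0.41 ± 0.10, adjusted p = 0.0501, edgeR), and with mouse as a block it passed (0.42 ± 0.09, 0.0221).

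Oasl1 and Ifi44 lay on the other side. Oasl1 measured 3.77, 2.64 and 6.13 CPM in FibCSETF against 5.1, 6.37 and 8.28 CPM in FibTF, and 2.62, 1.29 and 2.4 CPM in FibCSE against 5.09, 2.97 and 5.96 CPM in FibVeh. It was lower after CSE in 6 of 6 pairs (-0.88 ± 0.27, adjusted p = 0.0934, edgeR) and passed with the block (-0.92 ± 0.18, 0.0143). Ifi44 measured 35.3, 47.8 and 40.5 CPM in FibCSETF against 42, 61.7 and 46.5 CPM in FibTF, and 32.1, 19.1 and 24.8 CPM in FibCSE against 36.6, 41.2 and 43.3 CPM in FibVeh. It too was lower in 6 of 6 pairs (-0.46 ± 0.14, adjusted p = 0.0884), and DESeq2 called it (0.0273). The block gave Ifih1 and Oasl1 as its only calls among the members, against 4.8% of all genes higher and 3.89% lower. DESeq2 called 4 (10.3%), adding Ifi44 and Igtp to those, against 9.49% of all genes.

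The Fib libraries of mouse 2 moved unlike the others. Without drugs, 35 of 39 members were lower in FibCSE than in FibVeh in mouse 2 (median -0.35), and 14 and 7 were lower in mouse 1 and 3 (median 0.22 in both). The second FibCSE library was the lowest of 12 for 18 members. Without drugs 0 of 39 passed, against 0.104% of all genes, and DESeq2 called 0 as well. With an unadjusted p under 0.05, 2 were higher and 3 lower, against 6.8% and 6.46% of all genes. The smallest p were those of Ifi44 (-0.65 ± 0.19, adjusted p = 0.196, edgeR), Ifit2 (0.46 ± 0.15, 0.228) and Oasl1 (-1.13 ± 0.39, 0.249). Ifit2 measured 26.3, 18.8 and 20.3 CPM in FibCSE and 14.2, 19.7 and 14.5 CPM in FibVeh, which overlapped. Under drugs, 0 passed by either tool, against 0% of all genes, and 4 were higher at an unadjusted p under 0.05, against 6.02%. That count was 0 without FibTF replicate 1 or 3, FibCSETF replicate 2 or mouse 3. Besides Ifih1 (0.41 ± 0.14, adjusted p = 0.318), these included Igtp and Ifi35. Igtp measured 6.69, 8.24 and 7.53 CPM in FibCSETF and 4.59, 6.59 and 5.31 CPM in FibTF, without overlap (0.46 ± 0.17, 0.347). Ifi35 measured 20.1, 22.7 and 23.6 CPM in FibCSETF and 17.3, 21 and 17.9 CPM in FibTF, which overlapped (0.26 ± 0.11, 0.393).

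**Figure D4:**
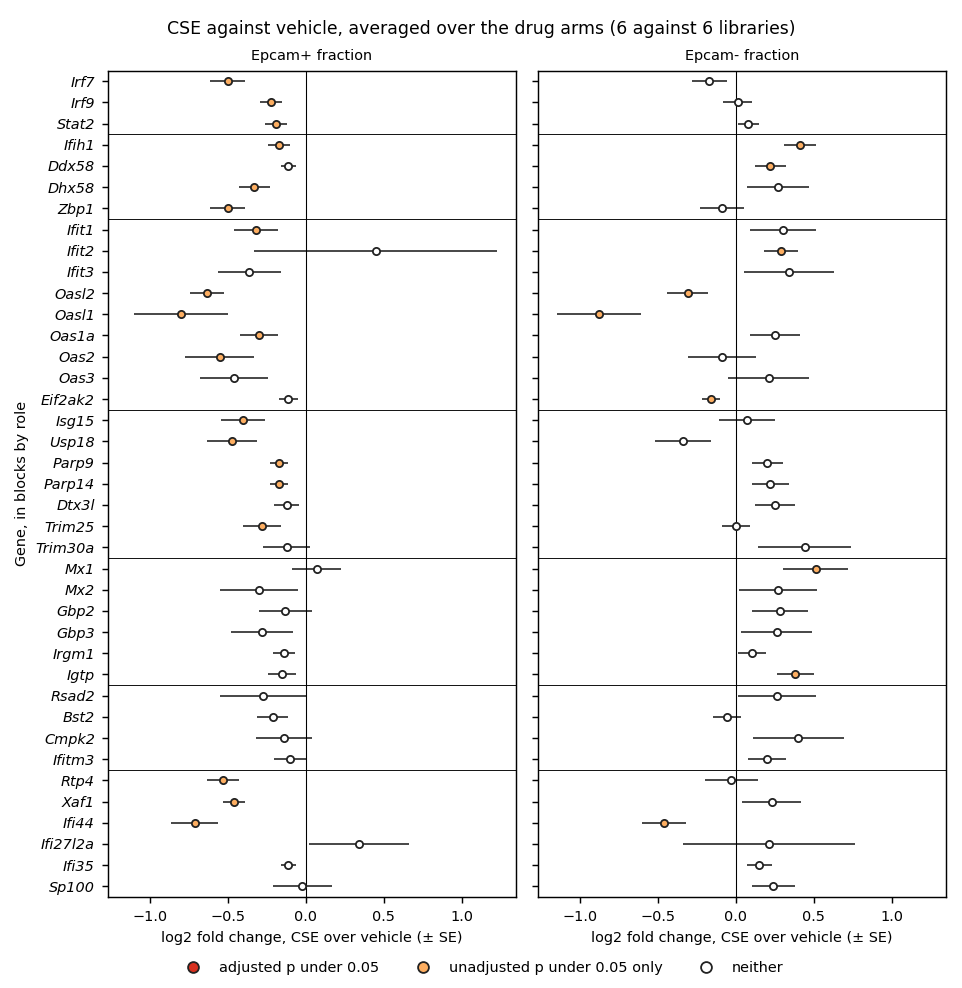
Points are log2 fold changes, 6 libraries with CSE over 6 without, averaged over the drug arms, with the SE as a bar, in the Epcam+ (left) and Epcam- (right) fraction. Orange points had an unadjusted p under 0.05 only and no point passed the adjusted test without the mouse block. On the left 36 of 39 points lie below 0 (49.2% of all genes) and on the right 28 of 39 lie above it (54.4%).

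The drugs alone left the members of the Epcam+ fraction near their vehicle level. In EpiTF against EpiVeh, 0 of 39 passed by edgeR or DESeq2, against 0% of all genes, and 0 had an unadjusted p under 0.05, against 1.18% of all genes higher and 1.44% lower. The median was 0.01 for the members and -0.01 for all genes. The smallest p was that of Trim30a, with 5.47, 7 and 5.66 CPM in EpiTF and 7.02, 9.87 and 7.23 CPM in EpiVeh (-0.41 ± 0.21, adjusted p = 1, edgeR). Its libraries just failed to overlap, with 7 CPM the highest in EpiTF and 7.02 the lowest in EpiVeh, as did those of 3.6% of all genes. Eif2ak2 (0.11 ± 0.09) and Ifitm3 (0.17 ± 0.15) were next. Eif2ak2 measured 68.2, 59.2 and 59.1 CPM in EpiTF and 61.8, 53.8 and 57 CPM in EpiVeh. Ifitm3 measured 461, 488 and 580 CPM in EpiTF and 455, 427 and 470 CPM in EpiVeh. Both overlapped between the groups.

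After CSE, the drug arm held higher values, in a comparison that uses the same EpiCSE libraries as the CSE comparison without drugs. In EpiCSETF against EpiCSE, 0 of 39 passed by edgeR or DESeq2, against 0% of all genes. At an unadjusted p under 0.05, 8 were higher, against 2.18%, and 9 did not overlap, against 4.32% of all genes. Dhx58 measured 13.3, 14.4 and 14.7 CPM in EpiCSETF and 12.2, 8.55 and 10.8 CPM in EpiCSE (0.43 ± 0.15, adjusted p = 0.983, edgeR). Irf9 measured 48.8, 48.9 and 49.6 CPM in EpiCSETF and 44.6, 34.2 and 43.4 CPM in EpiCSE (0.27 ± 0.09, 0.983). Mx1 measured 69.9, 104 and 67.1 CPM in EpiCSETF and 47.3, 52.3 and 60.8 CPM in EpiCSE (0.59 ± 0.22, 0.983). None of the 3 overlapped, and none passed the adjusted test. The median was 0.21 for the members and -0.01 for all genes. Without the second EpiCSE library 0 members had an unadjusted p under 0.05 and the median was 0.11. The count was 4 without EpiCSETF replicate 2 or 3 or mouse 3, and 2 without mouse 2. Within mice the medians were 0.05, 0.47 and 0.13 in mouse 1 to 3.

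Averaged over CSE, 0 of 39 members were called for the drugs in Epi by edgeR or DESeq2, against 0.00554% of all genes. At an unadjusted p under 0.05, 2 were higher, against 3% of all genes, namely Mx1 (0.40 ± 0.16, adjusted p = 0.777, edgeR) and Dhx58 (0.24 ± 0.10, 0.784). Next was Oas1a (0.22 ± 0.12, 0.804), with 18.6, 20 and 19 CPM in EpiCSETF and 21.7, 21.7 and 20.5 CPM in EpiTF, against 17.8, 11 and 15.5 CPM in EpiCSE and 19.6, 24.3 and 16.8 CPM in EpiVeh. Its drug and vehicle libraries overlapped. The interaction of drugs and CSE called 0 members by either tool, against 0% of all genes. Its smallest p were those of Irf9 (0.30 ± 0.13, adjusted p = 1, edgeR), Rtp4 (0.42 ± 0.21) and Oasl2 (0.40 ± 0.21), and only Irf9 had an unadjusted p under 0.05, against 0.538% of all genes higher.

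In Epcam- cells, the drug libraries held somewhat more of the members, with epithelial marker sums that ran higher but overlapped. Averaged over CSE, 0 of 39 passed by edgeR, against 0.109% of all genes. At an unadjusted p under 0.05, 13 were higher, against 7.96% of all genes, and 0 lower, against 6.95%. The median was 0.27, against 0 for all genes. With 1 library left out the count of 13 was 6 to 17, and with 1 mouse left out it was 4 (mouse 2) to 20 (mouse 1). With mouse as a block, Trim25 passed (0.38 ± 0.08, adjusted p = 0.0389), 1 of 39 against 1.6% of all genes. DESeq2 called 3 (7.69%), Trim25, Ifi44 and Irf7, against 4.15% of all genes.

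Trim25 measured 60.5, 55.9 and 65.3 CPM in FibCSETF and 56, 70.9 and 68.7 CPM in FibTF, against 54.6, 42.6 and 51.6 CPM in FibCSE and 46.9, 42.9 and 52.5 CPM in FibVeh. Each of its 6 drug libraries was above each of its 6 others, as in 0.476% of all genes (0.37 ± 0.09, adjusted p = 0.117, edgeR). Irf7 measured 19, 24.5 and 24.7 CPM in FibCSETF and 22.2, 26.6 and 23 CPM in FibTF, against 17.4, 12.1 and 18.7 CPM in FibCSE and 19.3, 20.4 and 19.6 CPM in FibVeh. Irf7 (0.39 ± 0.11, adjusted p = 0.156) and Ifi44 (0.50 ± 0.14, 0.14) were higher with drugs in 6 of 6 pairs, with overlap between the arms.

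The 12 epithelial markers summed to 4262 to 6678 CPM in FibCSETF and 4095 to 6618 CPM in FibTF. Without drugs they summed to 3254 to 4390 CPM in FibCSE and 3469 to 4877 CPM in FibVeh, ranges that overlapped those with drugs. With the epithelial over fibroblast marker difference as a covariate, 2 of 39 members had an unadjusted p under 0.05 and the median was 0.05. The share of all genes in that fit was not counted, and the part of the markers in the drug difference was not tested. In the drug comparison after CSE alone, FibCSETF against FibCSE, 0 passed by either tool, against 0.0109% of all genes. There 9 were higher at an unadjusted p under 0.05, against 5.32%, with a median of 0.27, or 0.08 with the covariate. The count was 3 to 15 with 1 library left out. The smallest p were those of Ifi44 (0.69 ± 0.19, adjusted p = 0.366, edgeR), Irf7 (0.50 ± 0.16, 0.371) and Oasl2 (0.54 ± 0.18, 0.371). Oasl2 measured 23.7, 35.9 and 36.2 CPM in FibCSETF and 20.1, 19.1 and 26.5 CPM in FibCSE, which overlapped. Without CSE, in FibTF against FibVeh, 0 passed by either tool, against 0.00547%. There only Trim25 had an unadjusted p under 0.05, against 3% of all genes higher (0.46 ± 0.13, adjusted p = 0.738), followed by Ifih1 (0.28 ± 0.14) and Irf7 (0.28 ± 0.16).

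Neither the interaction in Fib nor the difference of the drug effect between Epi and Fib called a member, by edgeR or DESeq2, and both backgrounds were 0%. In both, 0 members had an unadjusted p under 0.05. The background was 1.07% higher and 0.908% lower for the interaction, and 0.674% and 1.93% for the difference between Epi and Fib. The smallest p of the interaction were those of Ifit2 (-0.34 ± 0.21, adjusted p = 1, edgeR), Sp100 (0.43 ± 0.28) and Oasl2 (0.35 ± 0.25). Those of the difference between the fractions were Ifi44 (-0.39 ± 0.21), Trim25 (-0.24 ± 0.15) and Ifih1 (-0.19 ± 0.13). A p that misses the threshold does not show that the fractions responded alike.

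**Figure D5:**
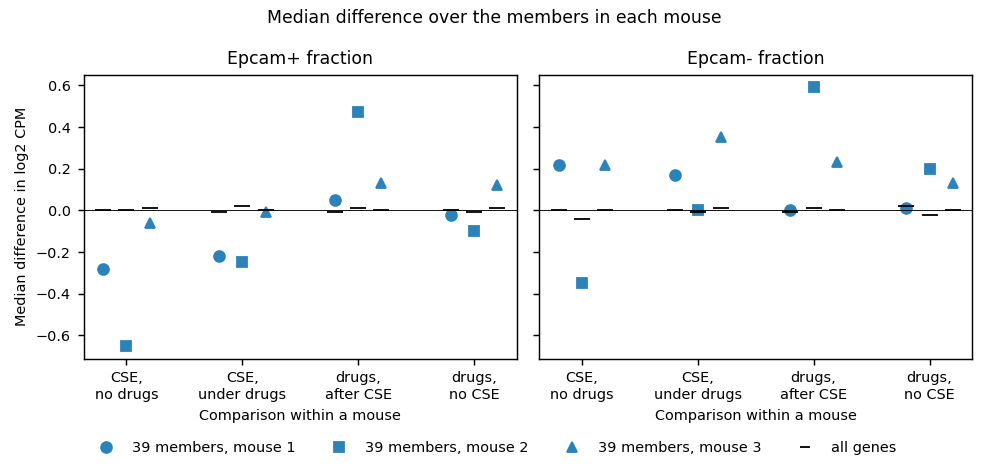
Symbols are the median difference in log2 CPM over the 39 members within each mouse (circle, square and triangle for mouse 1, 2 and 3), and dashes the median over all genes. The Epcam+ fraction is left and the Epcam- fraction right. Mouse 2 holds the extreme value of the CSE comparison without drugs (-0.65 in Epcam+ and -0.35 in Epcam- cells) and of the drug comparison after CSE (0.47 and 0.59).

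Between mice, the members were called no more often than other genes in Epi. A test between the 3 mice called 5 of 39 (12.8%), against 17.7% of all genes, and DESeq2 called 9 (23.1%), against 29%. The 5 are given as values. Trim25 averaged 121 ± 6.24, 91.4 ± 17 and 112 ± 17.5 CPM in mouse 1 to 3 (SD, n = 4 libraries each, adjusted p = 0.0111, edgeR). Bst2 averaged 41.2 ± 5.19, 51.9 ± 5.13 and 45.4 ± 4.95 CPM (adjusted p = 0.0226, edgeR). Mouse 2 was thus the lowest for Trim25 and the highest for Bst2. The others were Eif2ak2 (adjusted p = 0.0243), Oasl1 (0.0374) and Sp100 (0.0379). In Fib, Ifi27l2a alone was called, against 0.995% of all genes, with 2.99 ± 1.15 CPM in mouse 1, 0.869 ± 0.305 in mouse 2 and 0.982 ± 0.447 in mouse 3 (SD, n = 4 libraries each, adjusted p = 0.0304, edgeR). DESeq2 called 8 in Fib, against 11.6% of all genes. The counts moved with single libraries. With 1 left out, 0 to 7 members were called in Epi (0 without the second library of EpiVeh or of EpiCSETF). In Fib 0 to 2 were called, and 8 of 12 such fits called 0. Of 17 alternatives each, the Epi call held in 15 for Trim25, 13 for Bst2, 10 for Eif2ak2, 8 for Oasl1 and 7 for Sp100. The Fib call of Ifi27l2a held in 9. The 4 libraries of a mouse had different treatments. In Fib, where the fibroblasts are a single line, mouse stands for the animal that gave the epithelial cells of the culture.

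The interferons themselves were almost silent. Ifna1 and Ifna4 had 0 counts in each of the 24 libraries, which allows up to 0.0942 CPM in the shallowest. Ifnb1, the type I interferon most cells make first, reached at most 0.0875 CPM in Epi and 0.0495 CPM in Fib libraries. Of 10 ligands on the list only Ifne, a type I interferon of epithelia, passed the filter on low counts, and its average over treatments was higher in Epi (1.26 ± 0.37, adjusted p = 0.00536, edgeR). Its levels were a few counts, 0.0787 to 0.448 CPM in Epi and 0 to 0.35 CPM in Fib. The treatments differed: Ifne averaged 0.149 ± 0.0289 CPM in EpiCSETF against 0.192 ± 0.139 in FibCSETF, and 0.151 ± 0.0953 in EpiVeh against 0.148 ± 0.0626 in FibVeh (SD, n = 3 each). It measured 0.109, 0.0787 and 0.315 CPM in EpiCSE against 0, 0 and 0.0267 CPM in FibCSE, a group at almost 0 counts. With drugs alone it measured 0.219, 0.262 and 0.448 CPM in EpiTF against 0.114, 0.124 and 0.0988 CPM in FibTF.

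Between the fractions, the called differences of the receptors and of the factors below them all lay toward Epi. Of 6 receptor genes 4 were higher in Epi and 0 lower, where 34.7% of all genes were called higher and 34.2% lower. They were Ifnlr1, the type III receptor (1.15 ± 0.11), the type II receptor pair Ifngr1 (0.69 ± 0.06) and Ifngr2 (0.51 ± 0.05), and Il10rb, the shared chain of the type III receptor (0.31 ± 0.07, the largest adjusted p of these, 0.000297, edgeR). Ifnlr1 ran between 28.2 and 54.1 CPM in Epi and between 11 and 25.7 CPM in Fib, without overlap. The type I receptor genes did not pass (Ifnar1 0.06 ± 0.04, adjusted p = 0.191, and Ifnar2 0.01 ± 0.04, 0.781). Of 11 kinases and transcription factors 9 were higher and 0 lower, among them the factors Irf1 (0.47 ± 0.04) and Irf2 (0.46 ± 0.05) and the receptor kinase Jak2 (0.32 ± 0.03).

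Adaptors and brakes were mixed. Of 9 sensing adaptors tested 6 were higher in Epi, with the smallest p for Traf3 (0.38 ± 0.03), the RNA receptor Tlr3 (0.81 ± 0.10), Myd88 (0.29 ± 0.05) and Tmem173, which encodes STING (1.01 ± 0.17). The adaptor Ticam1 was lower (-0.24 ± 0.05). Of 5 negative regulators, the phosphatases Ptpn6 (0.77 ± 0.08) and Ptpn2 (0.25 ± 0.03) were higher and the cytokine suppressors Socs1 (-0.56 ± 0.16) and Socs3 (-0.35 ± 0.10) lower, with adjusted p up to 0.00483 (edgeR). Of 44 other interferon-stimulated genes, 26 were higher, with the smallest p for Ly6e (1.03 ± 0.09), Trim21 (0.62 ± 0.06), Nmi (0.91 ± 0.09) and Trim34a (0.91 ± 0.10). Another 11 were lower, with the smallest p for Nlrc5, the activator of class I antigen presentation genes (-2.03 ± 0.19), Pml (-0.28 ± 0.03), Slfn5 (-1.86 ± 0.22) and Ifi203 (-1.19 ± 0.14). This list thus held large differences in both directions. The background for the adaptors, the negative regulators and this list was again 34.7% of all genes higher and 34.2% lower.

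After CSE, none of these lists was called in Epi without the block (edgeR). With it, averaged over drugs, 3 of 76 genes of the lists were lower, against 0.571% of all genes. They were the receptors Ifnlr1 (-0.33 ± 0.06, adjusted p = 0.0422, edgeR) and Ifngr1 (-0.29 ± 0.06, 0.0497) and the gene Tdrd7 (-0.21 ± 0.04, 0.047). Of the 76, 1 was higher, Socs3 (0.42 ± 0.08, 0.0422), a count for which no background is given. In Fib, 5 of 75 genes of the lists were called higher in cultures with earlier CSE and 0 lower, against 4.01% of all genes called in either direction. With the block, 11 were called higher and 0 lower, against 4.8% of all genes higher. Those called without the block were the factors Stat3 (0.30 ± 0.05, adjusted p = 0.0165, edgeR) and Irf8 (1.39 ± 0.28, 0.0238), and the genes Gbp4 (0.87 ± 0.16, 0.0192), Sp110 (0.64 ± 0.15, 0.0424) and Gbp9 (0.47 ± 0.12, 0.0491). Irf8 averaged 1.77 ± 0.481 CPM in FibCSETF against 0.551 ± 0.187 in FibTF, and 0.979 ± 0.156 in FibCSE against 0.475 ± 0.234 in FibVeh (SD, n = 3 each). Gbp4 averaged 3.26 ± 0.399 CPM in FibCSETF against 1.95 ± 0.0992 in FibTF, and 4.01 ± 1.04 in FibCSE against 2.06 ± 0.535 in FibVeh. Both were higher after CSE in 6 of 6 pairs. Leukocyte markers summed to 49.9 to 92.6 CPM in FibCSETF against 49.4 to 52.5 CPM in FibTF, and to 65.7 to 89.4 CPM in FibCSE against 41 to 45.3 CPM in FibVeh, most of it Cd68 and Lyz2. Lyz2 averaged 21.6 ± 18.1 CPM in FibCSETF against 5.61 ± 2.68 in FibTF, and 36 ± 22.4 in FibCSE against 7.76 ± 2.93 in FibVeh. Cd68 differed less, with 43.8 ± 8.02 CPM in FibCSETF against 42.2 ± 0.903 in FibTF, and 35.1 ± 13.5 in FibCSE against 32.3 ± 3.88 in FibVeh. The part of these markers in the result was not tested.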

How the data were processed

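The authors deposited whole-number counts of reads per gene, with no normalization, for 24 libraries of poly-A RNA. Trimmomatic 0.30 and DESeq2 are the tools named, per the submitters' processing notes. A label names GRCh38.p14, a human assembly, for these mouse reads, so the build used for counting is not settled. The coordinates printed with the promoter sequences are those of the RefSeq windows (GRCm38.p6). No aligner, counter or strand setting is given in the sources used here, so overlapping and near-identical genes, such as the Oas1 and Ifit copies, may share reads.

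The main test was the quasi-likelihood F test of edgeR 4.0.16 (R 4.3.3) with TMM scaling, edgeR's own filter on low counts, robust fitting and Benjamini-Hochberg adjustment over all genes at 0.05. Models had 1 mean per group, over the 12 libraries of a fraction or over all 24, and were tested on simulated data with known changes. Alternatives were DESeq2 1.42.0, other scalings, no filter, leaving out 5941 loci with no symbol (0.574 to 1.06% of counts), a marker covariate, a mouse block and leaving out libraries. The labels name the mouse as batch, and the fibroblasts are a single line. Libraries of the same number were thus read as sharing the animal that gave the epithelial cells. Their deviations from group means correlated with a median r of 0.36 in Epi and 0.23 in Fib, against -0.12 and -0.14 between mice. No 2 replicates held identical counts. The genes given in full were the members called in a comparison (all if 12 or fewer, otherwise the 6 with the largest log2 fold change in each direction with at least 1 CPM), or the 3 with the smallest p where none was called, 1 leading member of each role group by level, and up to 4 called genes per direction of each pathway list, of which 1 is not reported here. Genes that only the block or DESeq2 called were named after their values were seen. The members and lists were chosen with earlier results of these data known. Exon lengths came from GENCODE M21, where all 39 members matched by identifier. Promoter windows came from RefSeq (GRCm38.p6).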

Additional observations from a re-analysis of the deposited data

How the results depend on the processing

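The count of members called between the fractions, 37, was 32 to 37 over all 34 alternatives. Counts that moved were those near 0. With DESeq2, 1 member was called for the difference of the CSE effect between the fractions, 3 for CSE without drugs in Epi, 6 for CSE averaged in Epi, 3 for drugs averaged in Fib, 4 for CSE averaged in Fib, 9 for mice in Epi (5 by edgeR) and 8 for mice in Fib (1 by edgeR). With mouse as a replicate block, which the shared animals pair, 5 were called for CSE averaged in Epi, 1 for drugs averaged in Fib and 2 for CSE averaged in Fib, and the block changed no other count. With the marker covariate, 2 were called for CSE averaged in Epi and 3 for CSE averaged in Fib. The share of all genes called with the covariate was not counted, so these counts have no background. Leaving out a library or a mouse gave 0 to 1 for CSE averaged in Epi, 0 to 1 for drugs averaged in Fib, 0 to 1 for CSE averaged in Fib, 0 to 7 for mice in Epi and 0 to 2 for mice in Fib. The 1 call came without EpiCSE replicate 1, without mouse 1 for drugs in Fib, and without FibCSE replicate 1, FibTF replicate 2, FibCSETF replicate 1 or mouse 1 for CSE in Fib. The cause was not tested. The other settings that changed scaling, filter or loci kept each count within 1.5 times. Of 1460 alternative values of named members, 1380 kept their direction and side of the threshold, 54 lost a call, 26 gained one and 0 turned. Ifi27l2a was the member nearest the depth limit, with as few as 7 counts in a library.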
